A study of Rattus norvegicus with 8 samples.

Results

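The miR-30 family was measured in rat synovial tissue through its 5 guide-strand microRNAs, miR-30a-5p, miR-30b-5p, miR-30c-5p, miR-30d-5p and miR-30e-5p. They were taken as the non-control probes that the array names for these miRNAs, which gave 5 of the 758 rat miRNAs on the array. Total RNA was labelled with Cy3 and hybridised to 8 Agilent arrays of 1 colour, 4 from ACLT knees and 4 from sham knees. ACLT is anterior cruciate ligament transection, a surgical model of osteoarthritis in which the cut ligament leaves the joint unstable. In both groups the left knee of Sprague-Dawley rats was opened on the medial side and the ligament was exposed, and it was cut only in the ACLT group. Tissue was taken from the side of the knee away from the incision, after 14 days by the series title and 2 weeks by the surgical protocol, while the design text gives 7 days. Age and sex are not given in the sources used here. The labels number replicates 1 to 4 in each group without saying that they are separate animals, so each p-value reflects the variation among these 8 samples alone, part of which could be technical.

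MicroRNAs are short RNAs that guide Argonaute proteins to messenger RNAs, mainly through base pairing of the seed near their 5′ end, and lower the output of the paired transcripts. The miR-30 guide strands share a seed and are widely expressed, with heart, kidney and skeletal muscle among the tissues that hold much of them. In bone-forming cells members of the family have been reported to target Runx2 and Smad1, and in heart and fibroblasts miR-30c has been reported to target the matrix regulator Ctgf.

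The sequences are shown because the shared seed and the few bases that differ define the family and bear on how separately the probes can read its members. Mature sequences of 3 of the 5 members were matched in RefSeq (build GRCr8) and are printed 5′ to 3′ with the seed, bases 2 to 8, in capitals.
rno-miR-30a-5p: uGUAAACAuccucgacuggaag
rno-miR-30c-5p: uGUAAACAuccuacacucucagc
rno-miR-30e-5p: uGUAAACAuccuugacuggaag
The first 12 bases were identical in these sequences. Counted from the 5′ end, with the base of miR-30a-5p first, miR-30e-5p differed only by C13U. The sequence of miR-30c-5p differed by C13A, G14C, G18C, G19U and A20C and was 1 base longer. Among the 693 mature sequences of the RefSeq table, 4 carried this seed at bases 2 to 8, the remaining one being miR-384-5p. How far the probes of one member also bind another was not tested.

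The family is made from several hairpins. In GRCr8 the 5p arm of Mir30a lay at chr9:33233946-33233967 on the plus strand, and that of Mir30c2 at chr9:33253695-33253717 on the plus strand, with 19727 bases between them. The 5p arm of Mir30c1 lay at chr5:139634505-139634527 on the minus strand and that of Mir30e at chr5:139637504-139637525 on the minus strand, with 2976 bases between them. Mir30c1 and Mir30e both fell within the span of Nfyc, a protein-coding gene for a subunit of the CCAAT-binding factor NF-Y. Mir30c2 fell within the span of a long non-coding RNA gene, LOC134480562, and of the pseudogene Rbx1-ps1. The hairpins of miR-30b and miR-30d form a further known cluster. Both miR-30c hairpins give the same mature 5p sequence, so the arrays read their sum.

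Across the series, 199 of the 758 miRNAs were seen on 1 array or more and 103 on every array, and 10.5% to 17.0% of spots per array were well above background, with 0 saturated. Signal is Feature Extraction's processed signal, background-subtracted and in linear scanner units. Over the 136 probes that exceeded background clearly on every array, the 75th percentile of this signal was 797 to 1185 on ACLT 1, ACLT 2 and sham 4, and 289 to 353 on the other 5 arrays. The former are called the 3 brighter arrays below, a description made from the data and no group of the study. Of 5 mesenchymal markers listed for the tissue check, 4 were detected on all arrays (summed scaled signal 6.26 to 9.60 after ACLT and 5.71 to 8.58 after sham), and 0 of 5 epithelial markers were detected on any. Of 10 striated muscle markers, 5 were detected on all arrays and 3 on none, with a summed scaled signal of 0.252 to 23.7 after ACLT and 2.13 to 9.11 after sham. Muscle miRNAs were therefore present at very unequal levels in tissue labelled as synovium. Their part in the results was tested only through the muscle level given below, by correlation and as a covariate of the group difference. In such bulk tissue, fewer cells of a type and less RNA per cell cannot be told apart.

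All 5 members were detected on all 8 arrays, and all were well above background on all 8 except miR-30d-5p, which was on 7 and not on sham 1. Each miRNA is given by the brightest of its probes, by the mean over all arrays. The signal of miR-30a-5p, known for targeting the autophagy gene Becn1, was 93.7, 112, 103 and 94.4 on ACLT arrays 1 to 4 and 40.7, 65.5, 80.0 and 152 on sham arrays 1 to 4. The ACLT arrays lay close together and inside the sham range, with sham 1 lowest and sham 4 highest.

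For miR-30e-5p, reported to act on the Wnt co-receptor Lrp6, the signal was 97.0, 144, 78.2 and 65.0 after ACLT and 39.1, 51.5, 64.2 and 170 after sham. It was highest on the 3 brighter arrays, and the groups overlapped. The signal of miR-30c-5p was 56.5, 69.2, 62.9 and 49.0 after ACLT and 29.7, 43.8, 58.3 and 89.0 after sham. Again sham 4 was the highest array and sham 1 the lowest, and the ACLT arrays lay between them.

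The cluster partners miR-30b-5p and miR-30d-5p, both reported to target the glycosyltransferase gene Galnt7 in melanoma, were the dimmest. For miR-30b-5p the signal was 46.3, 64.6, 44.8 and 32.5 after ACLT and 26.8, 38.1, 49.8 and 65.3 after sham. Its highest arrays, ACLT 2 and sham 4, came from different groups and stood almost level. For miR-30d-5p the signal was 29.8, 31.1, 24.5 and 24.5 after ACLT and 16.8, 23.0, 26.6 and 50.7 after sham. Only sham 4 stood well apart from the rest, and the ACLT values lay within the sham range.

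On each array the brightest probes ran in nearly one order. The probe of miR-30a-5p or of miR-30e-5p came first, followed by those of miR-30c-5p, miR-30b-5p and miR-30d-5p, in that order on all 8 arrays. The probe of miR-30e-5p led on the 3 brighter arrays and that of miR-30a-5p on the other 5, and their log2 ratio of 0.14 ± 0.31 (SD, n = 8) did not separate them beyond its spread. Of the 103 miRNAs detected on all arrays, ranked by signal, miR-30a-5p stood at 51, miR-30e-5p at 52, miR-30c-5p at 68, miR-30b-5p at 73 and miR-30d-5p at 89. The family thus occupied the middle and lower part of the range of these 103 miRNAs.

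This is an order of probe signals and not of molecule numbers, because different probes of the same member gave different signals. The brighter probe of a pair exceeded the dimmer by a median of 2.17 times for miR-30a-5p and 1.18 times for miR-30d-5p. The dimmer probe was well above background on 0 arrays for miR-30b-5p, 1 for miR-30c-5p and 3 for miR-30e-5p, so no ratio is given for these, whose brighter probe was so on all 8. In the authors' deposited table, which adds up the probes of a miRNA, miR-30a-5p came first on 7 arrays and miR-30e-5p first on ACLT 2. There miR-30c-5p followed these members on 7 arrays, and last place went to miR-30b-5p on 5 arrays and to miR-30d-5p on 3. The low end of the order therefore turned with the probe rule, while the lead of miR-30a-5p or miR-30e-5p did not.

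To compare arrays, each signal was divided by its array's 75th percentile given above and put on a log2 scale, called the scaled level from here on. Values under a floor, the lowest scaled signal well above background on any array (log2 -6.32), were set to it, and no member reached it. The spots of a member's probe agreed well, with median coefficients of variation of 5.59% for miR-30e-5p, 7.23% for miR-30a-5p, 8.75% for miR-30c-5p and 9.30% for miR-30b-5p, and the highest for miR-30d-5p, the dimmest. The scaled level spanned more than that between arrays, from 1.82-fold for miR-30e-5p to 3.02-fold for miR-30a-5p between the lowest and the highest array.

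**Figure D1:**
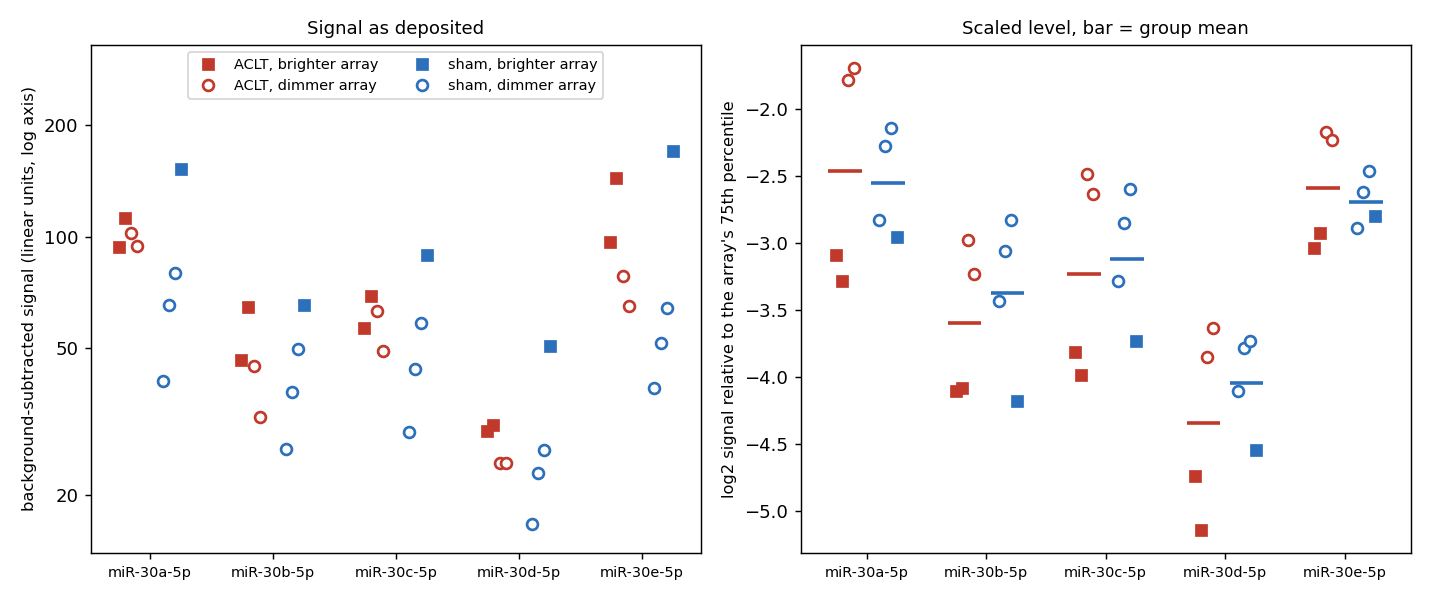
Scaled level (log2 of the signal over the array's 75th percentile) of the 5 members on each array, ACLT in red and sham in blue, with filled squares for the 3 brighter arrays and open circles for the other 5. The groups overlap for every member, and for miR-30a-5p to miR-30d-5p the filled squares lie below all open circles.

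No member differed between ACLT and sham synovium beyond the spread between arrays. The scaled level of miR-30a-5p was -3.09, -3.29, -1.78 and -1.69 on ACLT arrays 1 to 4 and -2.83, -2.28, -2.14 and -2.96 on sham arrays 1 to 4. ACLT 1 and ACLT 2 lay below every sham array and ACLT 3 and ACLT 4 above every one, so the means, -2.46 ± 0.84 (SD, n = 4) and -2.55 ± 0.40 (SD, n = 4), nearly coincided. The fitted difference, ACLT minus sham, was 0.088 (95% interval -0.88 to 1.06, limma adjusted p = 0.938).

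For miR-30e-5p the scaled level was -3.04, -2.93, -2.17 and -2.23 after ACLT and -2.89, -2.62, -2.46 and -2.80 after sham. The same pattern held, with ACLT 1 and 2 below and ACLT 3 and 4 above all sham arrays, and this member had the narrowest sham spread (0.19, SD, n = 4). Its difference was 0.098 (95% interval -0.46 to 0.65, limma adjusted p = 0.930). The interval of miR-30e-5p was the narrowest of the 5 in scaled level. With no scaling between arrays its standard error was the largest, 0.50 against 0.37 to 0.41 for the other members.

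The scaled level of miR-30c-5p was -3.82, -3.99, -2.49 and -2.64 after ACLT and -3.28, -2.86, -2.60 and -3.74 after sham. ACLT 1 and 2 were again the lowest arrays and ACLT 3 was the highest. Its difference was -0.11 (95% interval -1.08 to 0.85, limma adjusted p = 0.934).

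The scaled level of miR-30b-5p was -4.10, -4.08, -2.98 and -3.23 after ACLT and -3.43, -3.06, -2.83 and -4.18 after sham. Here a sham array, sham 4, was the lowest and another, sham 3, the highest, so the ACLT arrays lay wholly within the sham range. Its difference was -0.22 (95% interval -1.09 to 0.65, limma adjusted p = 0.868).

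For miR-30d-5p the scaled level was -4.74, -5.14, -3.85 and -3.64 after ACLT and -4.11, -3.79, -3.73 and -4.55 after sham. ACLT 1 and 2 were lowest and ACLT 4 highest, with sham 4 close to the low end. The difference, -0.30, was the largest of the 5 in size (95% interval -1.15 to 0.55, limma adjusted p = 0.868). That order depended on the floor. With a floor at the median over the arrays (log2 -4.48), above its level on ACLT 1, ACLT 2 and sham 4, the difference was -0.084. At that floor it was smaller in size than those of miR-30b-5p (-0.22) and miR-30c-5p (-0.11).

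In all, 2 members had a positive and 3 a negative difference, with a median of -0.11. Over the 113 miRNAs tested, 38 differences were positive and 75 negative, with a median of -0.13. None of the 113 passed the limma test at an adjusted p of 0.05 (0%), with 5 at an unadjusted p under 0.05. The groups overlapped for all 5 members, and 1 of 113 miRNAs (0.885%) had groups that did not overlap, miR-300-3p, named here after its values were seen. The sign of the members' differences depended on the scaling: with no scaling between arrays, miR-30b-5p, miR-30c-5p and miR-30d-5p stood at 0.10, 0.21 and 0.025, and with scaling to labelling spike-in probes miR-30a-5p and miR-30e-5p stood at -0.082 and -0.071.

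**Figure D2:**
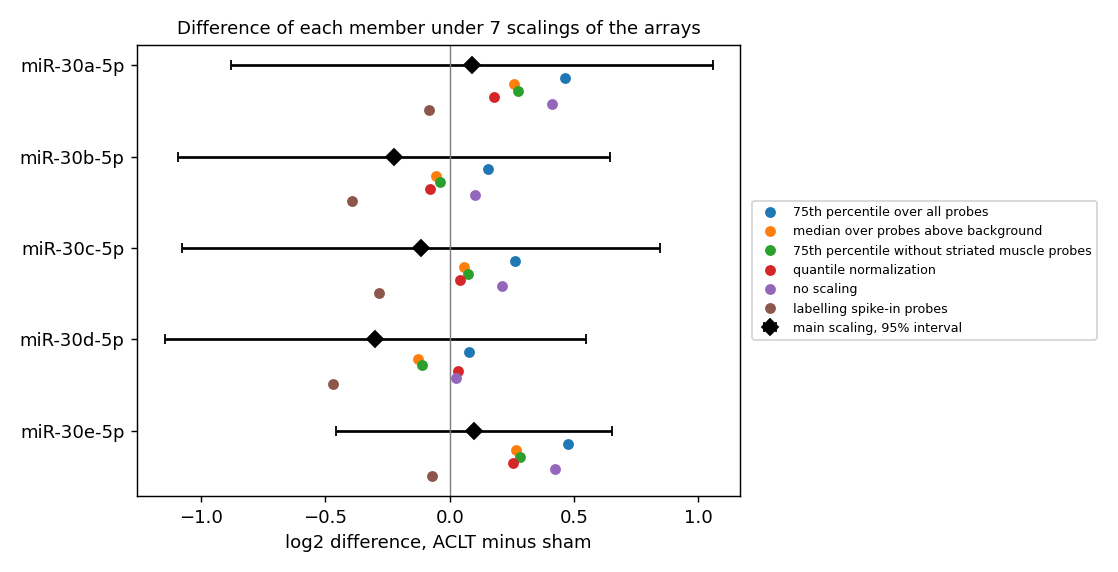
Fitted ACLT minus sham difference of the scaled level (log2) with its 95% interval for each member over all arrays. Each of these intervals includes 0, and the sign of the estimate depends on the scaling of the arrays. Differences within slide rows are given in the text.

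Array brightness moved with the members' levels. In unscaled signal, the median of the 3 brighter arrays was, relative to that of the other 5, 1.40 times for miR-30a-5p, 1.70 times for miR-30b-5p, 1.41 times for miR-30c-5p, 1.27 times for miR-30d-5p and 2.24 times for miR-30e-5p. The same ratio was 3.46 for the 75th percentile itself and had a median of 3.24 over the 108 tested miRNAs that lay above the floor on every array (interquartile range 1.88 to 3.99). Of the 108, 13 had a lower ratio than the lowest member and 34 a lower ratio than the highest, with no test made. The unscaled ranges of the brighter and dimmer arrays overlapped for miR-30a-5p, miR-30b-5p and miR-30c-5p.

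After scaling, the order turned. The scaled level of miR-30a-5p was -3.29 to -2.96 on the brighter arrays and -2.83 to -1.69 on the other 5. For miR-30b-5p the ranges were -4.18 to -4.08 and -3.43 to -2.83, and for miR-30c-5p -3.99 to -3.74 and -3.28 to -2.49. The brighter arrays thus lay wholly below the rest for these members.

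Likewise miR-30d-5p lay at -5.14 to -4.55 on the brighter arrays and at -4.11 to -3.64 on the other 5. For miR-30e-5p the ranges, -3.04 to -2.80 and -2.89 to -2.17, overlapped. All 3 brighter arrays were below all 5 others for 4 of 5 members and for 29 of the 108 miRNAs (26.9%). Brightness was split unevenly over the groups, 2 ACLT arrays and 1 sham array, and its part in the differences between groups was not tested. Among the 5 dimmer arrays alone, 2 ACLT and 3 sham, the differences in mean scaled level were 0.68, 0.0020, 0.35, 0.13 and 0.45 for miR-30a-5p to miR-30e-5p in alphabetical order.

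**Figure D3:**
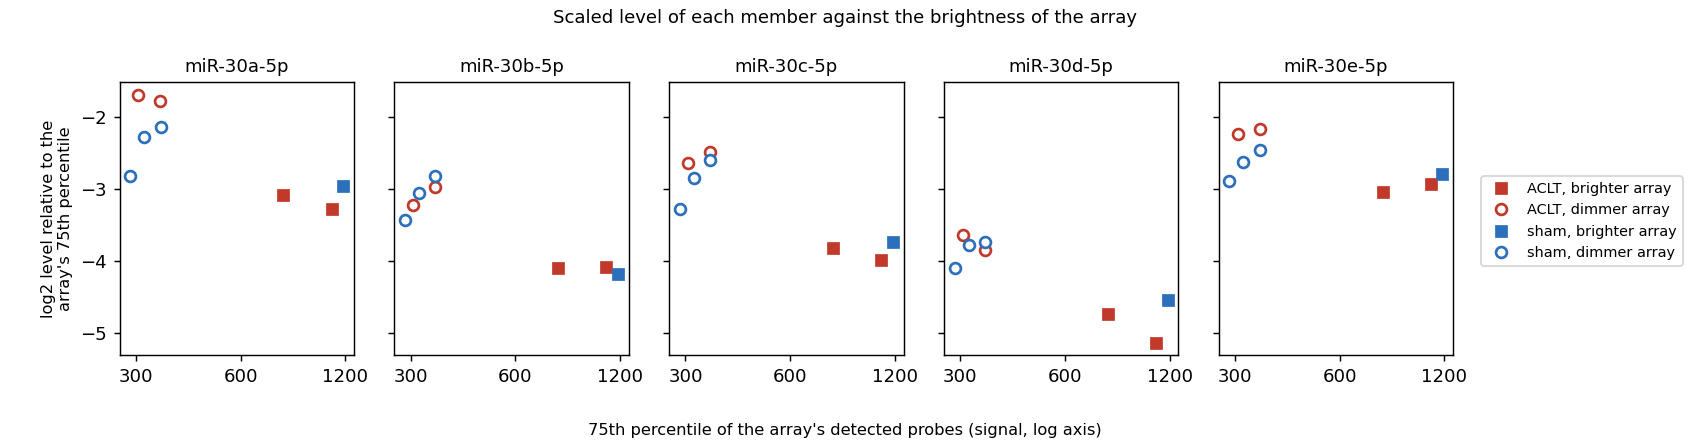
Level of each member on a log scale against the array's 75th percentile of signal (log axis), ACLT in red and sham in blue. In scaled level the 3 brighter arrays lie below all 5 dimmer ones for miR-30a-5p to miR-30d-5p. In unscaled signal the median of the 3 brighter arrays over that of the 5 dimmer ones is 1.27 to 2.24 for the members. The same ratio is 3.46 for the 75th percentile.

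The arrays of replicates 1 and 2 of both groups lay in row 1 of the slide and those of replicates 3 and 4 in row 2, and the members' differences had opposite signs in these rows. In row 1, which holds ACLT arrays that are both bright and sham arrays that are both dim, the scaled differences were -0.64 for miR-30a-5p, -0.85 for miR-30b-5p, -0.83 for miR-30c-5p, -0.99 for miR-30d-5p and -0.23 for miR-30e-5p. Of the 113 miRNAs, 22 passed in row 1 by limma (19.5%), 21 of them lower after ACLT (18.6%), and 0 of 5 members did, with adjusted p of 0.0540 for miR-30b-5p and miR-30d-5p the smallest. In row 2 the members' differences were 0.81, 0.40, 0.60, 0.40 and 0.43 in the same order, with 0 of 113 called by limma (0%) and 8 at an unadjusted p under 0.05. Over all 113 miRNAs the median difference also changed sign, from -0.18 in row 1 to 0.11 in row 2.

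The test of the change between rows passed for none of the members. Row 2 minus row 1, it was 1.45 ± 0.47 (SE) for miR-30a-5p, 1.25 ± 0.62 (SE) for miR-30b-5p, 1.44 ± 0.55 (SE) for miR-30c-5p, 1.39 ± 0.46 (SE) for miR-30d-5p and 0.66 ± 0.29 (SE) for miR-30e-5p, with limma adjusted p of 0.175 to 0.292. Of the 113 miRNAs, 0 passed this interaction test by limma (0%), with 23 at an unadjusted p under 0.05. Without scaling, the members' row 1 differences turned positive, 0.63 to 1.40, and those of row 2 negative, -0.58 to -0.17. The medians over all 113 miRNAs were then 1.41 and -0.87. In row 1 the group and the brightness of the array cannot be told apart.

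A ratio of members within an array does not depend on the scaling between arrays. The 10 pairs of members had log2 ratios with a median SD of 0.28 over the 8 arrays, against 0.55 over the 5778 pairs of the 108 miRNAs above the floor on every array. The members share sequence and similar signals, and the part of probe cross-binding in this was not tested.

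Partners from shared genomic clusters did not stand apart as a group. The ratio of miR-30a-5p to miR-30c-5p was the steadiest of the 10, at 0.67 ± 0.17 (SD, n = 8), and that of miR-30b-5p to miR-30d-5p had the fourth-smallest spread, at 0.71 ± 0.24 (SD, n = 8). The ratio of miR-30c-5p to miR-30e-5p had the eighth-smallest, at -0.53 ± 0.34 (SD, n = 8). Since miR-30c-5p comes from a hairpin in each of these clusters, its ratios hold the output of both. The cluster pairs had a median SD of 0.24 and the other 7 pairs 0.31, with no test made across pairs that share members.

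The 5 steadiest pairs all lay among miR-30a-5p, miR-30b-5p, miR-30c-5p and miR-30d-5p, and 4 of the 5 least steady ones held miR-30e-5p. Its ratio to miR-30c-5p split by brightness: the log2 ratio of miR-30c-5p to miR-30e-5p was -1.06 to -0.78 on the 3 brighter arrays and -0.41 to -0.14 on the other 5.

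The ratio of miR-30a-5p to miR-30d-5p was the single pair of the 10 whose groups did not overlap (10%), against 138 of the 5778 pairs (2.39%). It was 1.65, 1.85, 2.07 and 1.95 after ACLT and 1.28, 1.51, 1.59 and 1.59 after sham. Every ACLT array lay above every sham array, although ACLT 1 exceeded the highest sham array by little. The means were 1.88 ± 0.17 (SD, n = 4) and 1.49 ± 0.15 (SD, n = 4), a difference of 0.39 with p = 0.0286 in a two-sided exact permutation test. That is the smallest p that 70 arrangements allow, and it was 0.286 after Benjamini-Hochberg adjustment over the 10 ratios, so the difference did not pass. With the mean of each miRNA's probes the difference was 0.36 (exact permutation p = 0.114), and with normexp background correction 0.21 (exact permutation p = 0.143).

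**Figure D4:**
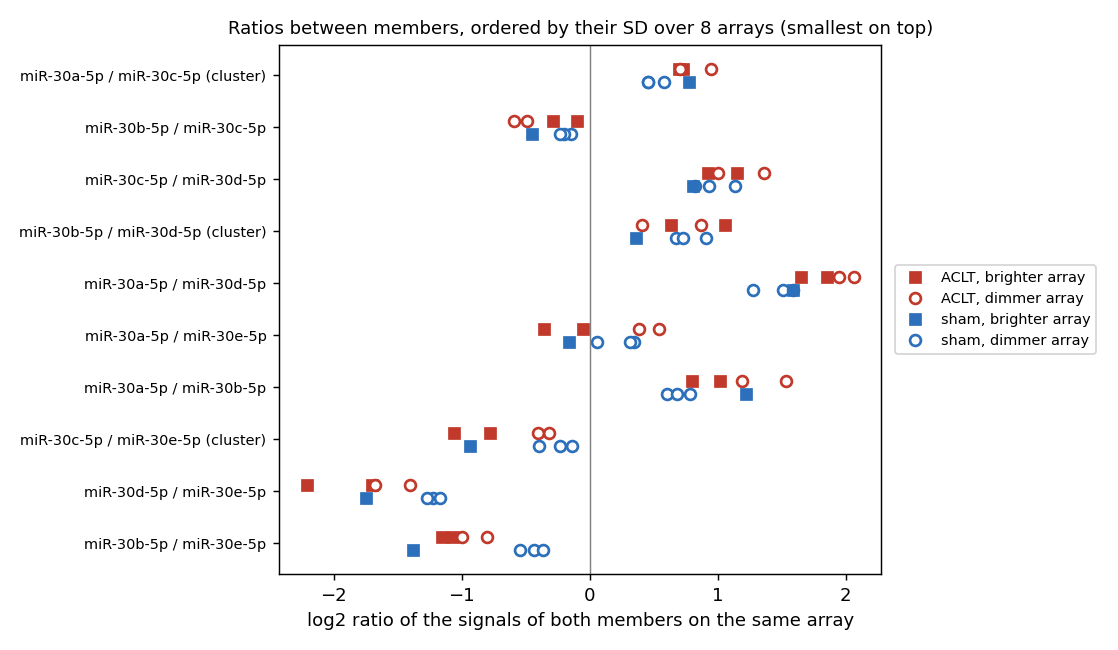
Log2 ratio of each of the 10 pairs of members on each array, ordered by the SD over the 8 arrays, ACLT in red and sham in blue. The ratio of miR-30a-5p to miR-30c-5p has the smallest SD (0.17) and that of miR-30b-5p to miR-30e-5p the largest (0.37).

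Since the family is also abundant in muscle, its levels were set beside those of striated muscle miRNAs. The muscle level is the mean scaled level of the 5 tested markers, miR-1-3p, miR-1b, miR-206-3p, miR-133a-5p and miR-133b-3p, which regulate or mark muscle differentiation. It was 0.17, -4.93, 1.47 and 1.77 on ACLT arrays 1 to 4 and -0.85, -1.67, 0.33 and -0.91 on sham arrays 1 to 4. ACLT 2 stood far below all others and ACLT 3 and 4 were highest, so the ACLT group held both extremes.

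No member's correlation with the muscle level passed the test over all miRNAs, and the coefficients depended on the scaling. For miR-30a-5p Pearson's r was 0.735 (permutation p = 0.0245, adjusted 0.265) and Spearman's rho 0.786 (permutation p = 0.0279, adjusted 0.201). For miR-30d-5p r was 0.708 (permutation p = 0.0414, adjusted 0.279) and rho 0.643 (permutation p = 0.0962, adjusted 0.297). For miR-30c-5p r was 0.677 (permutation p = 0.0498, adjusted 0.316) and rho 0.714 (permutation p = 0.0576, adjusted 0.249). None of these passed after adjustment over the 108 tested miRNAs outside the muscle list.

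For miR-30e-5p r was 0.649 (permutation p = 0.0718, adjusted 0.353) and rho 0.643 (permutation p = 0.0962, adjusted 0.297). For miR-30b-5p r was 0.501 (permutation p = 0.203, adjusted 0.477) and rho 0.452 (permutation p = 0.267, adjusted 0.516). The permutations were exact, two-sided and over all 40320 pairings of the 8 arrays, and both coefficients were computed for each of the 108 miRNAs.

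All 5 members had an r above 0, as did 46 of the 108 miRNAs outside the muscle list (42.6%), whose median r was -0.14, but the sign turned for miR-30b-5p with no scaling (-0.11), spike-in scaling (-0.084) and the authors' deposited table (-0.14), and for miR-30e-5p with spike-in scaling (-0.21). Ranked by r, miR-30a-5p stood at 4, miR-30d-5p at 5, miR-30c-5p at 6, miR-30e-5p at 7 and miR-30b-5p at 17. By Pearson's r 0 of 108 passed after adjustment (0%), with 17 at an unadjusted permutation p under 0.05, and by Spearman's rho 0 passed (0%), with 21 unadjusted. Scaled to a 75th percentile that included undetected probes, r was 0.40 for miR-30a-5p, 0.0061 for miR-30b-5p, 0.34 for miR-30c-5p, 0.35 for miR-30d-5p and 0.053 for miR-30e-5p. With no scaling it was 0.29 for miR-30a-5p, 0.20 for miR-30c-5p, 0.18 for miR-30d-5p and 0.020 for miR-30e-5p. Both sets lie well below the coefficients of the scaled levels. Spike-in scaling also lowered r for every member, to 0.30, -0.084, 0.21, 0.19 and -0.21 for miR-30a-5p to miR-30e-5p. In the authors' deposited table r was again lower for every member, at 0.29, -0.14, 0.32, 0.14 and 0.015 in the same order. The remaining scalings did not lower r in this way for all members. With muscle probes left out of the 75th percentile it was 0.81, 0.66, 0.78, 0.82 and 0.77 for miR-30a-5p to miR-30e-5p. Scaled to the median it was 0.75, 0.50, 0.69, 0.76 and 0.63 in the same order. With quantile normalization it was 0.72, 0.42, 0.69, 0.87 and 0.25. The points share arrays and scaling, so the members are not independent of each other.

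The arrays at the ends weighed differently on the members. Without ACLT 1 alone, r was higher for every member, from 0.64 for miR-30b-5p to 0.86 for miR-30a-5p. Without ACLT 2 alone, r was 0.33 for miR-30d-5p, 0.28 for miR-30b-5p, 0.49 for miR-30c-5p, 0.64 for miR-30a-5p and 0.68 for miR-30e-5p. Without ACLT 2 and ACLT 4, which lay farthest from the median muscle level, r was 0.47 for miR-30a-5p, 0.25 for miR-30b-5p, 0.38 for miR-30c-5p, 0.097 for miR-30d-5p and 0.55 for miR-30e-5p. The coefficient of miR-30d-5p thus rested on these arrays, while that of miR-30e-5p moved little, and leaving out extremes also narrows the range of the muscle level. On ACLT 2 brightness and muscle level cannot be told apart, since it was both a brighter array and the lowest in muscle. The other brighter arrays, ACLT 1 and sham 4, had muscle levels of 0.17 and -0.91, inside the range of the dimmer arrays. Neither the 3 brighter nor the 5 dimmer arrays nor the 4 arrays of a slide row are enough for a correlation. The pooled coefficients are therefore a description of these 8 arrays.

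**Figure D5:**
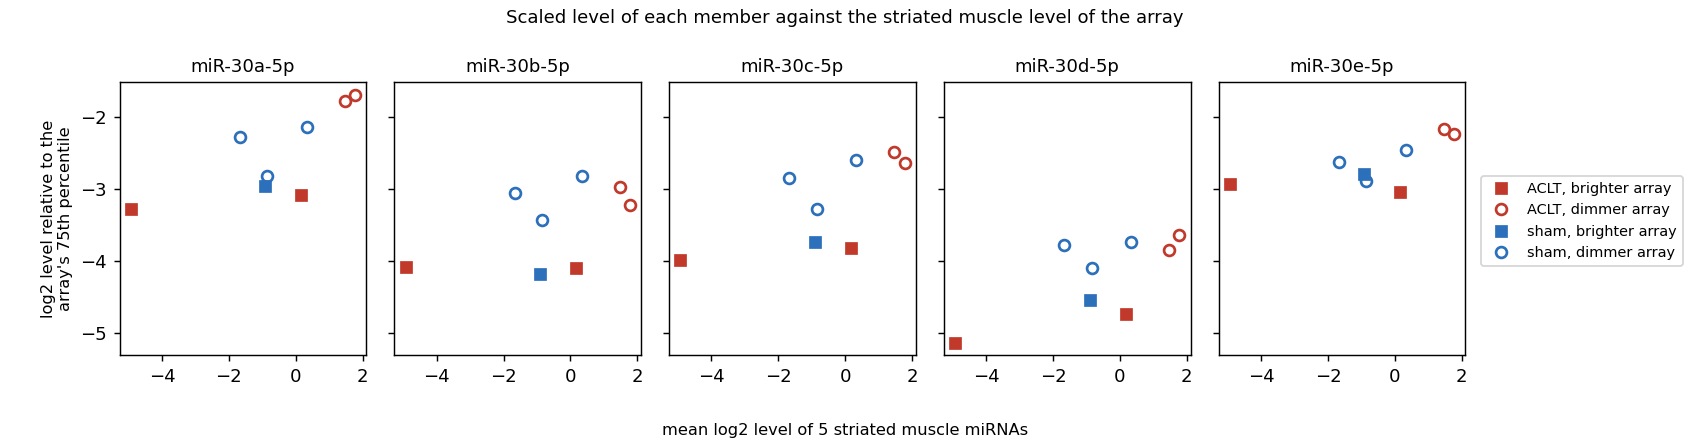
Scaled level of each member (log2) against the mean scaled level of 5 striated muscle miRNAs (log2) on each array, ACLT in red and sham in blue, with filled squares for the 3 brighter arrays. ACLT 2 lies far to the left at -4.93, and ACLT 3 and ACLT 4, farthest to the right, have the highest miR-30a-5p and miR-30e-5p.

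The other strand of each hairpin was close to the detection limit. The 3p strand miR-30a-3p was detected on 1 array (sham 4), miR-30e-3p on 1 (sham 4), miR-30c-1-3p on 2 (ACLT 1 and ACLT 2) and miR-30b-3p on 3 (ACLT 2, sham 1 and sham 4). Neither miR-30c-2-3p nor miR-30d-3p was detected on any array, and the seed relative miR-384-5p, known mainly from brain, was not either. The highest 3p signal on any array was 14.5, for miR-30e-3p, whose partner miR-30e-5p was 39.1 or more on every array. None of these was tested between groups, because none was detected on all arrays of a group.

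Of the other 10 miRNAs reported to target Runx2, the transcription factor of bone and hypertrophic cartilage, 1 could be tested. That was miR-23a-3p, whose scaled level averaged 1.27 ± 0.10 (SD, n = 4) in ACLT synovium and 1.22 ± 0.13 (SD, n = 4) in sham synovium, a difference of 0.055 (SE 0.13, limma adjusted p = 0.928). Its scaled level varied far less between arrays than that of miR-30c-5p, and this depended on the scaling. With no scaling the SE of its difference was 0.62, against 0.38 for miR-30c-5p. With spike-in scaling these were 0.41 and 0.42. Of the rest, 5 were detected on no array, and miR-34c-5p was detected on 1, miR-338-3p on 2, miR-204-5p on 4 and miR-133a-3p on 5.

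The miRNAs whose levels ran most like the members' were found by the SD of the log2 ratio over the 8 arrays, where a smaller SD is a closer likeness. The closest 3 included miR-26a-5p, an abundant miRNA of many tissues, for every member, with an SD of 0.23 to 0.39. For miR-30a-5p, miR-30b-5p, miR-30c-5p and miR-30d-5p the closest was miR-376b-5p, a miRNA of the imprinted Dlk1-Dio3 region, with an SD of 0.14 to 0.27. Its probe was well above background on 2 arrays only, with signals of 10.8 to 24.3.

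The leukocyte marker miR-150-5p was among the closest 3 for miR-30a-5p, miR-30b-5p and miR-30c-5p, with an SD of 0.21 to 0.36, and was well above background on all 8 arrays. The other tested leukocyte markers, miR-142-3p and miR-223-3p, were not among the closest 3 for any member, so this is no likeness to the leukocyte markers as a set. For miR-30d-5p the closest also included miR-872-5p (SD 0.27), which was well above background on 1 array. For miR-30e-5p the closest were miR-196a-5p (SD 0.24), a miRNA of the Hox clusters, and miR-29c-3p (SD 0.27), known for targeting collagen genes. By this measure the likeness of miR-30e-5p ran to other miRNAs than that of the rest of the family, apart from miR-26a-5p. Pearson's r was 0.66 to 0.74 for its closest 3, against 0.80 to 0.97 for those of the other members. The scaled level of miR-196a-5p varied little, from -3.08 to -2.72, and a small SD of a ratio can also come from levels that vary little.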

How the data were processed

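MiRNAs were measured on 8 Agilent 1-colour arrays (design 070154) on 1 slide. Per the labels' protocols, total RNA was isolated with RNAiso plus and 50 ng was labelled with Cy3 using a messenger RNA labelling kit; no source used here settles whether miRNA was labelled that way. Per the file headers, the authors' images were read with Feature Extraction 10.7.3.1 (protocol miRNA_107_Sep09), and the values used are its processed signals, a linear, background-subtracted intensity. The authors' deposited value table equals its total signal per miRNA (largest difference 0).

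Control and outlier spots (9.01% to 11.1% per array) were left out and spots were averaged per probe. Signals were scaled to the array's 75th percentile among the 136 probes that stood well above background on every array, as few of the 1806 probes were detected. Values were floored at 0.0125, the lowest such signal well above background on any array (log2 -6.32), and log2 was taken. Tested were 113 miRNAs detected on all 4 arrays of a group, each by its brightest probe, with limma 3.58.1 in R 4.3.3 (Benjamini-Hochberg at 0.05, checked on simulated data). Single ratios and correlations used exact permutation, computed in Python 3.11.15 with numpy 2.4.6, with ranks from scipy 1.17.1. The number of arrays limits the precision. Alternatives were other scalings, background correction, probe rules, floors, blocks, the muscle level as a covariate, slide rows and leaving out each array.

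Groups and replicate numbers come from the titles. Named are the members, their other arms, miR-384-5p, the Runx2 list and, per member, the 3 tested miRNAs with the steadiest ratio to it. Members and lists were chosen with earlier results of these data known. Marker lists were also checked for leukocytes (3 of 5 detected on all arrays), erythroid cells (2 of 3), cartilage (2 of 4) and endothelium (1 of 2).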

Additional observations from a re-analysis of the deposited data

Results flagged for a closer look

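Of 34 sets of group values checked for a single array standing apart, 1 did, where chance alone gives about 1.7. In the log2 ratio of miR-30a-5p to miR-30c-5p after ACLT, ACLT 4 stood at 0.95 and the other ACLT arrays at 0.70 to 0.73, a gap of 0.877 of the group's range. The cause was not tested.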

How the results depend on the processing

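No member passed the limma test over all arrays under any of the alternatives run on them, and the signs of their differences turned with the scaling. Scaled to the 75th percentile of all probes, miR-30b-5p, miR-30c-5p and miR-30d-5p stood at 0.15, 0.26 and 0.078, and with the deposited table at 0.10, 0.23 and 0.020, as against 0.10, 0.21 and 0.025 with no scaling. Only miR-30c-5p turned with the median (0.056) and without muscle probes (0.072), and with quantile normalization it stood at 0.043, miR-30d-5p at 0.035 and miR-23a-3p at -0.13. With spike-in scaling miR-30a-5p stood at -0.082, miR-30e-5p at -0.071 and miR-23a-3p at -0.11, and with normexp miR-30a-5p at -0.081 and miR-30e-5p at -0.086. Within slide row 1 the count called was 22 with a members' median of -0.83, miR-30a-5p at -0.64 and miR-30e-5p at -0.23. With no scaling, a choice made after seeing the data, row 1 gave 70 called and a median of 0.79, with miR-30b-5p at 0.78, miR-30c-5p at 0.79 and miR-30d-5p at 0.63, and miR-30e-5p at 1.40 passed there (limma adjusted p = 0.0202). Within row 2 miR-30b-5p stood at 0.40, miR-30c-5p at 0.60 and miR-30d-5p at 0.40, and with no scaling miR-30a-5p at -0.17, miR-30e-5p at -0.55 and miR-23a-3p at -0.88. Leaving out each array in turn gave counts of 0 to 0, members' medians of -0.36 to 0.14, and differences of -0.17 to 0.36 (miR-30a-5p), -0.49 to -0.04 (miR-30b-5p), -0.36 to 0.14 (miR-30c-5p), -0.53 to -0.03 (miR-30d-5p), -0.042 to 0.25 (miR-30e-5p) and 0.0049 to 0.09 (miR-23a-3p).

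The correlation of miR-30b-5p with muscle was -0.11 with no scaling, -0.084 with spike-ins and -0.14 with the deposited table, and that of miR-30e-5p -0.21 with spike-ins. With the floor at the median over the arrays, a choice made after seeing the data, that of miR-30d-5p was 0.571. Leaving out each array gave 0 to 1 miRNAs called, the 1 being miR-16-5p without sham 2. The log2 ratio of miR-30a-5p to miR-30c-5p was 0.35 with normexp, 1.22 with the mean of probes and 1.05 in the deposited table, and that of miR-30b-5p to miR-30d-5p was 0.26, -0.51 and -0.17. The ACLT minus sham difference of the ratio of miR-30a-5p to miR-30d-5p lay between 0.32 and 0.46 without single arrays. With the replicate number as a block, 0 miRNAs were called (1 unadjusted) and no member's call changed. With the muscle level as a covariate, 0 of 108 miRNAs were called by limma (6 unadjusted). The members' differences were then 0.0047, -0.28, -0.19, -0.38 and 0.060 for miR-30a-5p to miR-30e-5p. The check of the numbers was mixed: same-numbered arrays had correlated deviations for replicates 2 and 3 (r of 0.508 and 0.801), each matching best with its own number, and opposed ones for replicates 1 and 4 (-0.381 and -0.511), so the numbers were not taken as pairs. The cause of these changes was not tested. Signal limits miR-30d-5p, not well above background on sham 1, and the 3p strands, which had no probe well above background on any array.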
